A study of Mus musculus with 16 samples.

Results

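RNA of 10 genes that mark capsule and stromal fibroblasts was followed in adrenal glands of control mice and of mice with a gain of function (GOF) of Rspo1, which encodes R-spondin 1, a secreted amplifier of WNT signalling. The 10 genes were Pdgfra, Pdgfrb, Tcf21, Thy1, Dcn, Lum, Fbln1, Mfap5, Dpt and Clec3b. They were chosen by name, out of 54838 genes in the deposited count table, as known markers of connective tissue cells. Earlier results of these data were known when the choice was made. All 10 passed the filter on low counts, which left 18214 genes for testing.

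The 16 libraries came from 4 groups of 4 individual mice: female controls, female Rspo1 GOF, male controls and male Rspo1 GOF. Every mouse was 4 weeks old and of a mixed genetic background. The labels name neither the allele, nor the promoter or cells that drive it, nor the genotype of the controls beyond the word control. Whole adrenal glands were sampled, so a level is an average over all cells of the gland and of any tissue that came with it. In such samples fewer fibroblasts and less RNA per fibroblast cannot be told apart.

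The adrenal capsule is a thin mesenchymal sheath around the steroid-producing cortex. Its cells serve as stromal support and, in part, as progenitors of cortical cells, and they secrete the WNT amplifier RSPO3 that sustains the outermost cortical zone. Fibroblasts are recognised by the PDGF receptor alpha, by the collagen-binding proteoglycans decorin and lumican, and by proteins of microfibrils and elastic fibres. The PDGF receptor beta is also carried by pericytes, the cells that wrap small blood vessels.

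Libraries held between 31275146 and 43003968 counts, and the 10 genes had between 91 and 16563 counts each per library. The unit of level is CPM, a gene's counts per 1000000 counts of its library after TMM scaling. Rspo1 itself ranged from 3.19 to 48.2 CPM over the 8 control libraries and from 353 to 971 CPM over the 8 GOF libraries. The summed CPM of 7 cortex markers lay between 31986 and 52412 in every library. Within that sum Hsd3b1 and Nr5a1 rose with GOF in each sex and Star fell (edgeR adjusted p under 0.05). Star changed by -0.78 in females and -0.57 in males on the log2 scale. The male fall of Star did not pass without female control 1. Male control 2 stood apart by its liver transcripts, 8615 CPM summed over 8 liver markers against at most 57.2 in any other library. Female controls 1 and 3 carried kidney tubule transcripts, 1143 and 195 CPM over 9 markers, against at most 2.86 elsewhere. Results that use the controls were therefore also computed without these 3 libraries.

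Of the 10 markers, 9 were lower in GOF than in control adrenals in females, and the same 9 genes were lower in males. Pdgfrb was the exception in both sexes. The decreases of the 9 genes lay between 2.49-fold (Tcf21) and 5.45-fold (Lum) in females and between 2.06-fold (Tcf21) and 7.32-fold (Dpt) in males. For each of the 9, every GOF library lay below every control library of the same sex. The test was edgeR's quasi-likelihood test, fitted over all 16 libraries, with Benjamini-Hochberg adjustment over 18214 genes and a threshold of 0.05. Among all genes tested, 20.6% were called lower in GOF females and 21.8% in GOF males. Of the genes called in either direction, 48.0% were higher in GOF females and 41.1% in GOF males. With limma on log2(FPKM + 1), where FPKM are fragments scaled to transcript length and library total, these shares were 60.7% and 61.3%. The median of all genes in males moved from 0.01 to 0.12 with limma on log2(FPKM + 0.1), where the share for males was 60.8%. Groups that did not overlap, with GOF below control, were seen in 20.4% of all genes in females and in 19.1% in males.

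Over the 10 genes the log2 changes had a median of -1.72 in females and -2.29 in males, against 0.05 and 0.01 over all genes tested. Without female controls 1 and 3 and male control 2, again 9 markers were called lower in each sex. The summed level of the 10 genes was 560 ± 63.8 CPM (SD, n = 4) in female controls and 194 ± 32.6 CPM (SD, n = 4) in female GOF adrenals. In males the sum was 955 ± 173 CPM (SD, n = 4) in controls and 279 ± 21.6 CPM (SD, n = 4) in GOF adrenals. The summed CPM of 7 adipocyte markers moved in the same direction, from 836 to 1316 in female controls, 344 to 555.1 in female GOF, 1096 to 2609 in male controls and 292 to 374 in male GOF libraries. None of these 7 adipocyte genes was at 0 throughout a group. Fat around the gland also holds fibroblasts, and the part that such tissue had in the decreases was not tested.

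**Figure D1:**
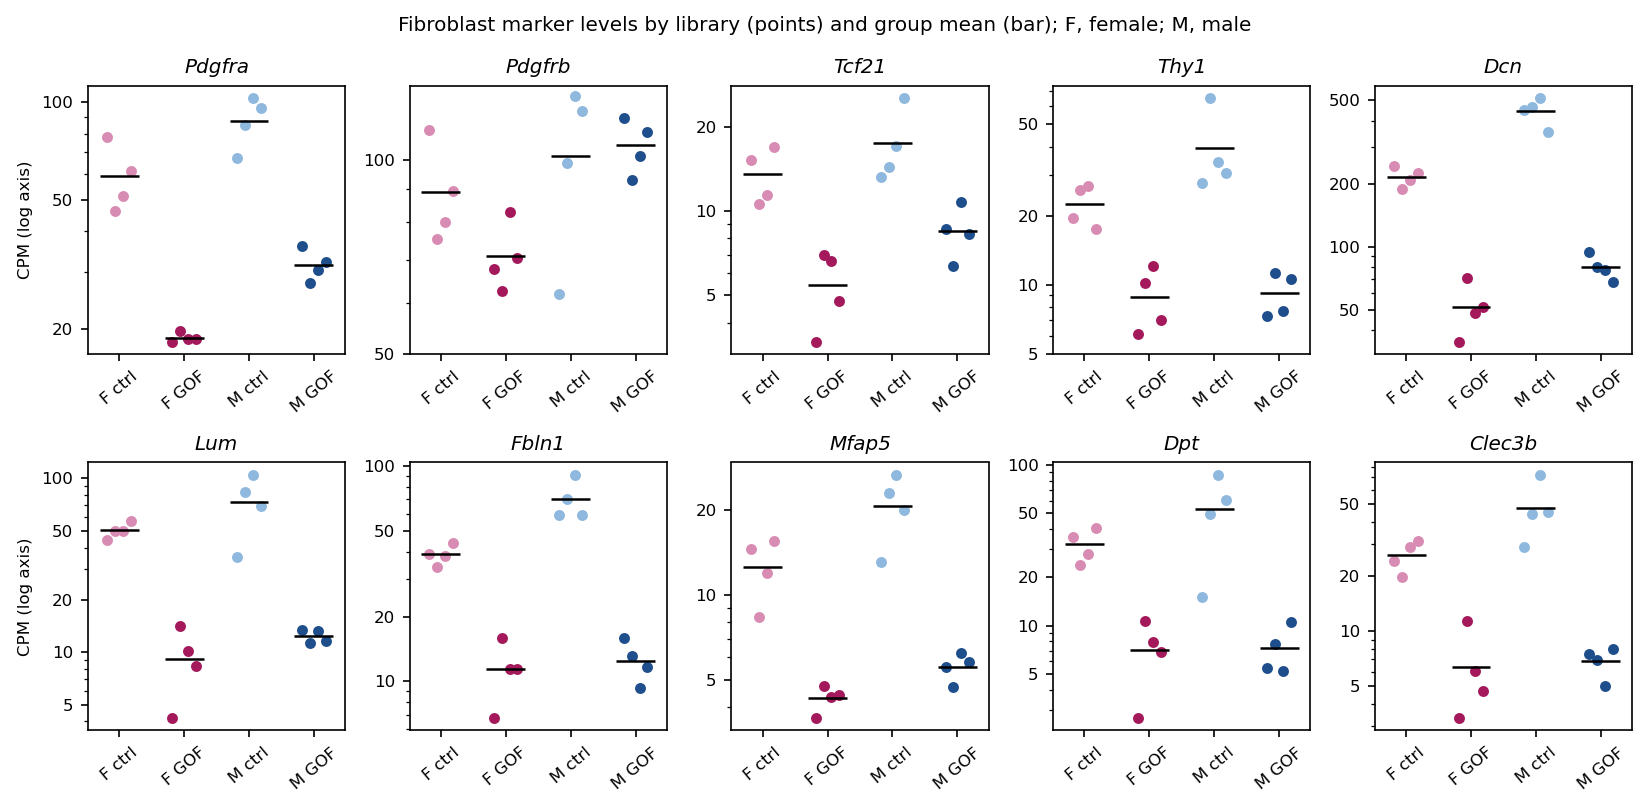
Level of each of the 10 fibroblast markers in CPM on a log axis; each point is 1 library (4 per group; F, female; M, male; ctrl, control) and the bar is the group mean. Points of the GOF groups lie below all control points of the same sex in 9 panels, and overlap them in the Pdgfrb panel.

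Among the receptors, Pdgfra, the alpha receptor for platelet-derived growth factors and the usual surface marker of fibroblasts, showed the tightest separation. Female control libraries 1 to 4 had 78.1, 46.0, 51.4 and 61.4 CPM, and female GOF libraries 1 to 4 had 18.2, 19.7, 18.6 and 18.5 CPM. Male control libraries had 67.1, 84.9, 103 and 95.9 CPM, and male GOF libraries had 36.0, 27.7, 30.3 and 32.1 CPM. All GOF libraries were thus low in their own sex, and the female GOF libraries lay within a narrow band, 18.8 ± 0.631 CPM (SD, n = 4). Fitted log2 changes were -1.66 ± 0.156 (SE; edgeR adjusted p = 3.14e-06) for females and -1.48 ± 0.154 (SE; edgeR adjusted p = 4.89e-06) for males. Pdgfra lies on chromosome 5 at 75152292-75198215 of the plus strand (GRCm38, GENCODE M21). Its exons overlap Mir7025 on the same strand and Gm42802 and Gm42803 on the other strand. How reads over these shared exons were counted is not known, and the strand setting of the counting is not given in the sources used here.

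Pdgfrb, the beta receptor, is shared by fibroblasts and by the pericytes of blood vessels. Female control libraries had 111, 75.5, 80.1 and 89.5 CPM, and female GOF libraries had 67.8, 62.7, 82.9 and 70.3 CPM. Male control libraries had 62.0, 99.1, 126 and 119 CPM, and male GOF libraries had 116, 93.0, 102 and 111 CPM. The groups overlapped in both sexes. The log2 difference was -0.33 ± 0.181 (SE; 95% interval -0.72 to 0.06) in females (edgeR adjusted p = 0.164). In males it was 0.05 ± 0.181 (SE; 95% interval -0.33 to 0.44; edgeR adjusted p = 0.845). The lower bounds of these intervals were smaller in size than the estimated decrease of any of the 9 other genes, the smallest of which was -1.04 for Tcf21 in males. Female control 1, the library with most kidney transcripts, was the highest of its group for both receptors. Without female controls 1 and 3 and male control 2, the female difference was -1.52 for Pdgfra and -0.22 for Pdgfrb, of which the first was called.

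The ratio of the receptors set GOF and control libraries apart. On the log2 scale Pdgfrb exceeded Pdgfra by 0.51, 0.71, 0.64 and 0.54 in female controls and by 1.87, 1.65, 2.12 and 1.90 in female GOF libraries, with 0.5 CPM added to each level. In males the log2 ratio was -0.11, 0.22, 0.29 and 0.31 in controls and 1.68, 1.73, 1.73 and 1.77 in GOF libraries. GOF and control libraries did not overlap in either sex, and the differences of the means were 1.29 and 1.55. Pdgfra alone was already without overlap while Pdgfrb overlapped, so this separation largely restates the Pdgfra decrease. The share of all genes whose ratio to Pdgfra separates in this way was not computed. A 2-sided exact permutation test gave p = 0.0286 in each sex, the smallest value that 4 against 4 libraries allow, and 0.0857 after adjustment over the 18 ratios of the other members to Pdgfra. None of the 18 ratios passed that adjustment. Because p cannot go lower, a pass would need many of the 18 at this smallest value, so not passing says little.

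The PDGF ligands, fixed as a list of 4 genes, did not move as a group. Pdgfa, a ligand of the alpha receptor, fell by 0.68 ± 0.122 (SE) on the log2 scale in females and by 0.35 ± 0.121 (SE) in males. Pdgfb, which binds both receptors, rose by 0.48 ± 0.160 (SE) in females and 0.44 ± 0.160 (SE) in males, and Pdgfd, a ligand of the beta receptor, rose by 0.33 ± 0.0963 (SE) and 0.30 ± 0.0967 (SE). Pdgfc, an alpha receptor ligand, fell by 1.24 ± 0.150 (SE) in males (edgeR adjusted p = 1.73e-05), while its difference in females was -0.36 ± 0.148 (SE; edgeR adjusted p = 0.0681). In all, 1 ligand fell and 2 rose in females, and 2 fell and 2 rose in males. The calls of Pdgfa in males, Pdgfb in males and Pdgfd in females were each lost under at least 1 alternative, with no change of sign. The number of ligands that rose was 0 to 2 in each sex when 1 library was left out. Where it was 0, the calls of Pdgfb in females or of Pdgfd in males were lost as well.

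Tcf21 encodes a basic helix-loop-helix transcription factor of mesenchymal cells, expressed in precursors of the capsule. It was the weakest of the 9 decreases in each sex. Female controls had 15.2, 10.6, 11.4 and 17.0 CPM against 3.42, 6.98, 6.62 and 4.77 CPM in female GOF libraries. Male controls had 13.3, 14.4, 17.1 and 25.4 CPM against 8.63, 6.37, 10.8 and 8.27 CPM in male GOF libraries. No library of a GOF group reached the lowest control of its sex. In females this was a change of -1.31 ± 0.261 (SE) on the log2 scale (edgeR adjusted p = 0.00114), and in males of -1.04 ± 0.258 (SE; edgeR adjusted p = 0.00555).

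Basic helix-loop-helix factors bind the E-box, CANNTG, so the promoters of the members were searched for it. RefSeq promoter entries (GRCm38.p6) were matched for 4 of the 10 members, Pdgfra, Tcf21, Dpt and Fbln1. The search covered the bases before the first annotated start, and since CANNTG reads the same on the opposite strand, 1 pass covers both strands. The Tcf21 window of 219 bases held none. The windows of Pdgfra (250 bases) and Fbln1 (250 bases) held 1 each, and that of Dpt (231 bases) held 4, of which 1 was CAGCTG. The 3 windows that hold the motif are printed 5′ to 3′ on the gene's strand, with each CANNTG in capitals, to show where it lies in genes that fell together.
Pdgfra, chr5:75152001-75152250, plus strand: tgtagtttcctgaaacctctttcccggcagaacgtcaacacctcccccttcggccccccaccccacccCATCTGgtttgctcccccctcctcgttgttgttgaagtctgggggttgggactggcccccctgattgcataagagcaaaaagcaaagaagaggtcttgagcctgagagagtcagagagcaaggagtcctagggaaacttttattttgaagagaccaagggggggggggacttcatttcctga
Dpt, chr1:164796413-164796643, plus strand: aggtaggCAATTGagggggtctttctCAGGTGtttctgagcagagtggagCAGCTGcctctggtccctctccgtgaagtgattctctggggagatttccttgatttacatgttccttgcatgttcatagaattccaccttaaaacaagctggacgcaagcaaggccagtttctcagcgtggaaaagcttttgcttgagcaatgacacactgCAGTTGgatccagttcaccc
Fbln1, chr15:85205699-85205948, plus strand: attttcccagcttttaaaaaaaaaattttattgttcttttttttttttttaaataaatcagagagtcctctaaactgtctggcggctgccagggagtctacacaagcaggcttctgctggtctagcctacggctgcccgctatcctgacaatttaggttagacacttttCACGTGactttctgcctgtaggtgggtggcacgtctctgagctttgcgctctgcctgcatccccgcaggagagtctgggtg
Of 32851 RefSeq promoters, 66.2% held CANNTG in a window of 250 bases and 63.6% in a window of 231 bases, so the motif is common. A count of 4 or more in 231 bases, as in Dpt, was seen in 3.04% of promoters, and CAGCTG in 11.9%. These matches are a description of the letters and show no binding.

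Thy1 encodes a glycoprotein anchored to the surface of fibroblasts, which in mice also marks neurons and T cells. Female controls had 19.5, 25.9, 26.9 and 17.5 CPM, and female GOF libraries had 6.08, 10.2, 12.1 and 7.03 CPM. Male controls had 27.7, 65.3, 34.2 and 30.8 CPM, and male GOF libraries had 7.31, 11.3, 7.66 and 10.6 CPM. Male control 2 had the highest Thy1 level of all libraries by a wide margin, and GOF and control libraries of 1 sex did not overlap. Fitted log2 changes were -1.34 ± 0.285 (SE; edgeR adjusted p = 0.00194) for females and -2.10 ± 0.291 (SE; edgeR adjusted p = 5.92e-05) for males.

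Neuronal transcripts moved with Thy1. The summed CPM of 7 neuron markers was 42.99 to 94.3 in female controls, 4.39 to 13.9 in female GOF, 107 to 1128 in male controls and 13.3 to 25.8 in male GOF libraries, with male control 2 at 1128. Of these 7 markers, 5 fell in GOF females and 7 in GOF males. With the title number range as a covariate 3 and 6 were called, Tubb3 (neuronal tubulin) losing its call in both sexes and Nefm (a neurofilament) in females, and without female controls 1 and 3 and male control 2 the male difference of Tubb3 was -0.69, against -3.13 with all libraries, and was not called. The summed CPM of 6 T cell markers was 3.08 to 6.73 in controls and 4.37 to 49.4 in GOF libraries, the highest being male GOF 2. Without female controls 1 and 3 and male control 2, Thy1 was still lower in GOF, by -1.29 in females and -1.75 in males on the log2 scale. The part of neuronal RNA in the Thy1 decrease was not tested.

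Dcn and Lum encode decorin and lumican, small leucine-rich proteoglycans that coat collagen fibrils and set their spacing. They are neighbours on chromosome 10, Dcn at 97479609-97518143 and Lum at 97565128-97572703, with 46984 bases between them. Dcn was the most abundant of the 10 markers in every group when levels were compared per length, as FPKM. Female controls had 242, 189, 209 and 224 CPM of Dcn, and female GOF libraries had 35.2, 71.2, 48.3 and 51.8 CPM. Male controls had 449, 462, 512 and 353 CPM, and male GOF libraries had 94.1, 80.3, 77.1 and 68.1 CPM. The 4 groups did not overlap except for the 2 GOF groups, where female GOF 2 lay above male GOF 4. Dcn fell 4.18-fold in females (log2 fold change -2.06 ± 0.180 SE, edgeR adjusted p = 1.97e-06) and 5.56-fold in males (log2 fold change -2.47 ± 0.182 SE, edgeR adjusted p = 4.07e-07).

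Lum had 44.4, 49.7, 50.01 and 57.0 CPM in female controls and 4.18, 14.1, 10.1 and 8.37 CPM in female GOF libraries. Male controls had 35.2, 83.7, 105 and 69.5 CPM, and male GOF libraries had 13.4, 11.3, 13.3 and 11.7 CPM. Male control 1 was the lowest control of either sex and still lay above every GOF library. In females this was a change of -2.45 ± 0.329 (SE) on the log2 scale (edgeR adjusted p = 6.11e-05), and in males of -2.56 ± 0.329 (SE; edgeR adjusted p = 3.36e-05).

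The other small leucine-rich proteoglycans, a list of 10 genes of which 9 were tested, were mostly lower as well. In females 7 fell and 1 rose, the median being -1.63 on the log2 scale, and in males 6 fell and 1 rose, the median being -1.28. Bgn (biglycan), the most abundant per length, fell by 0.73 ± 0.163 (SE) in females and by 0.82 ± 0.163 (SE) in males. Ogn (osteoglycin) fell by 1.90 ± 0.179 (SE) and 1.47 ± 0.176 (SE), Prelp by 1.69 ± 0.160 (SE) and 1.53 ± 0.159 (SE), and Fmod (fibromodulin) by 1.10 ± 0.216 (SE) and 0.89 ± 0.214 (SE). The gene that rose was Chad (chondroadherin), a leucine-rich protein of cartilage, which rose by 1.66 ± 0.562 (SE) in females (edgeR adjusted p = 0.0297) and 2.60 ± 0.572 (SE) in males (edgeR adjusted p = 0.00261). The female call of Chad was lost without a filter on low counts and in 3 other alternatives. Aspn (asporin) passed in neither sex, with differences of -0.25 ± 0.315 (SE) and -0.30 ± 0.313 (SE), and Epyc (epiphycan) did not pass in males, at -1.28 ± 0.575 (SE).

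Fbln1, Mfap5 and Dpt encode fibulin 1, a component of basement membranes and elastic fibres, microfibril-associated protein 5, and dermatopontin, which binds decorin and collagen. All 3 were lower in GOF adrenals of each sex. Fbln1 had 39.2, 33.9, 38.4 and 44.1 CPM in female controls, 6.75, 15.8, 11.4 and 11.4 CPM in female GOF, 59.0, 70.1, 91.1 and 59.5 CPM in male controls, and 15.9, 13.1, 9.36 and 11.6 CPM in male GOF libraries. Its fitted log2 change was -1.77 ± 0.225 (SE) in females (edgeR adjusted p = 3.57e-05) and -2.49 ± 0.230 (SE) in males (edgeR adjusted p = 1.93e-06).

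Mfap5 had 14.6, 8.32, 11.96 and 15.5 CPM in female controls, 3.65, 4.76, 4.33 and 4.43 CPM in female GOF, 13.1, 23.0, 26.7 and 19.9 CPM in male controls, and 5.56, 4.71, 6.23 and 5.76 CPM in male GOF libraries. The decrease was -1.55 ± 0.218 (SE) in females (edgeR adjusted p = 7.74e-05) and -1.89 ± 0.219 (SE) in males (edgeR adjusted p = 1.16e-05). Mfap5 was the gene among the members whose profile over the 16 libraries was nearest to that of Pdgfra.

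Dpt had the widest standard errors of the 10 genes. Female controls had 35.8, 23.8, 27.96 and 40.9 CPM, female GOF libraries 2.66, 10.8, 7.94 and 6.83 CPM, male controls 15.0, 49.6, 87.2 and 60.5 CPM, and male GOF libraries 5.45, 7.74, 5.20 and 10.6 CPM. Male control 1, at 15.0 CPM, lay closer to the highest male GOF library than to the next male control. Fitted log2 changes were -2.18 ± 0.472 (SE; edgeR adjusted p = 0.0023) for females and -2.87 ± 0.484 (SE; edgeR adjusted p = 0.000353) for males.

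Of 14 other elastic fibre and fibulin genes, 9 fell and 1 rose in females (median log2 fold change -1.20), and 11 fell and 0 rose in males (median -1.36). Efemp1 (fibulin 3) fell by 3.56 ± 0.365 (SE) on the log2 scale in females and by 2.22 ± 0.347 (SE) in males. Efemp2 (fibulin 4), which is needed to assemble elastic fibres, was the most abundant of the list per length and rose by 0.40 ± 0.0920 (SE) in females (edgeR adjusted p = 0.0034), with a difference of 0.11 ± 0.0913 (SE) in males (edgeR adjusted p = 0.357). Eln, the elastin gene, had log2 differences of -1.06 ± 0.434 (SE; edgeR adjusted p = 0.0665) and -1.30 ± 0.436 (SE; edgeR adjusted p = 0.0306), and the male call was lost in 6 alternatives, with adjusted p from 0.0638 to 0.144. Ltbp4, which binds latent TGF-beta, had differences of -0.91 ± 0.360 (SE; edgeR adjusted p = 0.0586) and -1.52 ± 0.365 (SE; edgeR adjusted p = 0.00496). The count in males was 7 in the limma fit without a filter on low values.

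Clec3b encodes tetranectin, a secreted lectin that binds plasminogen and is abundant in adventitial fibroblasts. Female controls had 24.5, 19.9, 29.2 and 31.2 CPM, and female GOF libraries had 3.33, 11.3, 6.09 and 4.71 CPM. Male controls had 28.9, 43.9, 72.5 and 45.3 CPM, and male GOF libraries had 7.52, 6.97, 4.98 and 8.03 CPM. The GOF libraries of both sexes shared 1 range, from 3.33 to 11.3 CPM, while every control lay at 19.9 CPM or above. In females this was a change of -2.03 ± 0.341 (SE) on the log2 scale (edgeR adjusted p = 0.000338), and in males of -2.79 ± 0.350 (SE; edgeR adjusted p = 2.61e-05).

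**Figure D2:**
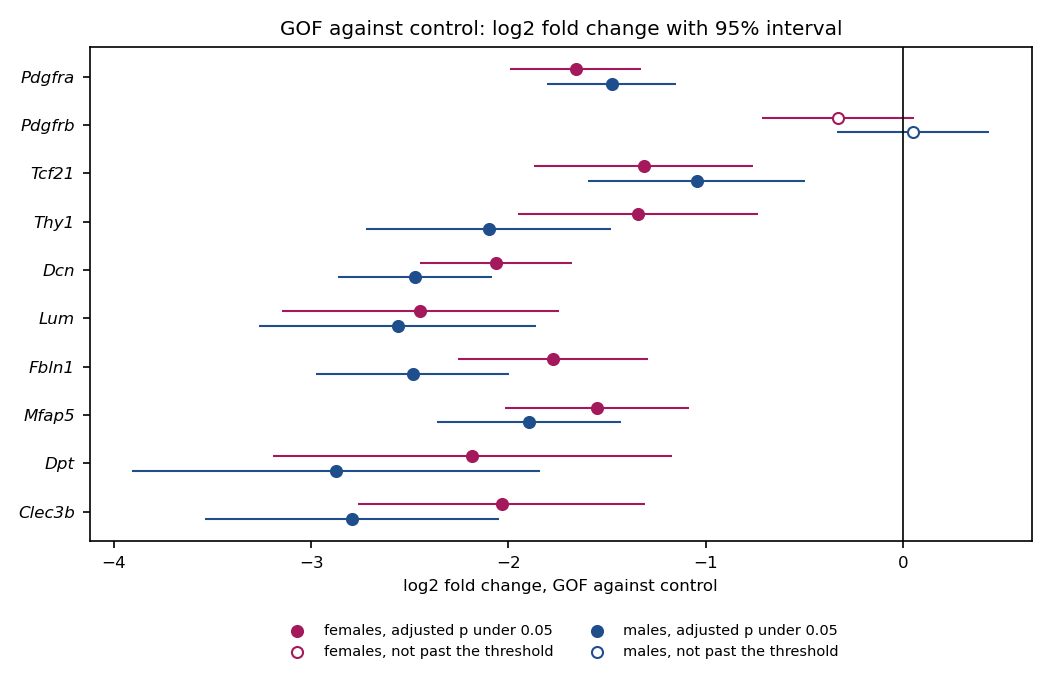
Log2 fold change of each marker, GOF against control, in females (upper, red) and males (lower, blue), with the 95% interval of edgeR's quasi-likelihood fit; filled circles passed the adjusted threshold of 0.05. Pdgfrb is the only marker with open circles, at -0.33 and 0.05, and the other 9 lie between -1.04 and -2.87.

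In 3 of the 4 groups the same library was often the lowest or highest across the members. Female GOF 1 was the lowest of its group for 9 of the 10 genes and female GOF 2 the highest for 8. Among male controls, library 1 was the lowest for 9 genes and library 3 the highest for 8. Female control 2 was the lowest of its group for 8 genes. Male GOF libraries showed no such order, library 2 being the lowest for 5 genes and library 1 the highest for 5. Over the 16 libraries the profile of Pdgfra was nearest to that of Mfap5, with a root mean square difference of 0.23 on the log2 scale after centring each profile on its mean. Dcn and Fbln1 differed by 0.25, Clec3b and Fbln1 by 0.28, and Lum and Clec3b by 0.31. Pdgfrb was the farthest member for 7 of the other 9, and its own nearest member, Tcf21, lay at 0.62. The genes outside the 10 with the most similar profile to Pdgfra, among 13492, were Prelp (0.0988), Cyp1b1 (0.176) and Mest (0.188), against a median of 0.932. For Dcn they were Igfbp6 (0.217), Gsn (0.218) and Vit (0.226), against a median of 1.29. These are descriptions over libraries that share their groups and carry no test.

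Ranked by FPKM, Dcn led in each group, with mean levels of 116 in female controls, 29.0 in female GOF, 240.2 in male controls and 46.9 in male GOF adrenals. Pdgfrb, at 15.9, 13.2, 18.3 and 20.6 FPKM, was the 8th of the 10 in female controls and the 9th in male controls, and the 2nd in both GOF groups. Its share of the summed FPKM of the 10 genes was 5.64% ± 0.618 (SD, n = 4) in female controls and 15.8% ± 4.05 (SD, n = 4) in female GOF. In males the share was 3.60% ± 0.853 (SD, n = 4) in controls and 16.2% ± 1.07 (SD, n = 4) in GOF.

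The ratios of the other members to Pdgfra show how evenly the genes moved, although none of the 18 passed the adjustment. On the log2 scale the ratio to Pdgfra in males was lower in GOF than in controls by -1.01 for Dcn, -0.96 for Lum, -1.20 for Clec3b and -0.99 for Fbln1, each without overlap between GOF and control libraries (exact permutation p = 0.0286, adjusted p = 0.0857). In females the corresponding differences were -0.49, -0.89, -0.46 and -0.18, and the libraries overlapped. For Mfap5 the differences were 0.19 in females and -0.32 in males, and for Tcf21 0.34 and 0.47, with overlap in each sex. The remaining differences were 0.28 and -0.53 for Thy1 and -0.62 and -1.14 for Dpt, with overlap. The share of all genes without overlap in such a ratio was not computed.

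**Figure D3:**
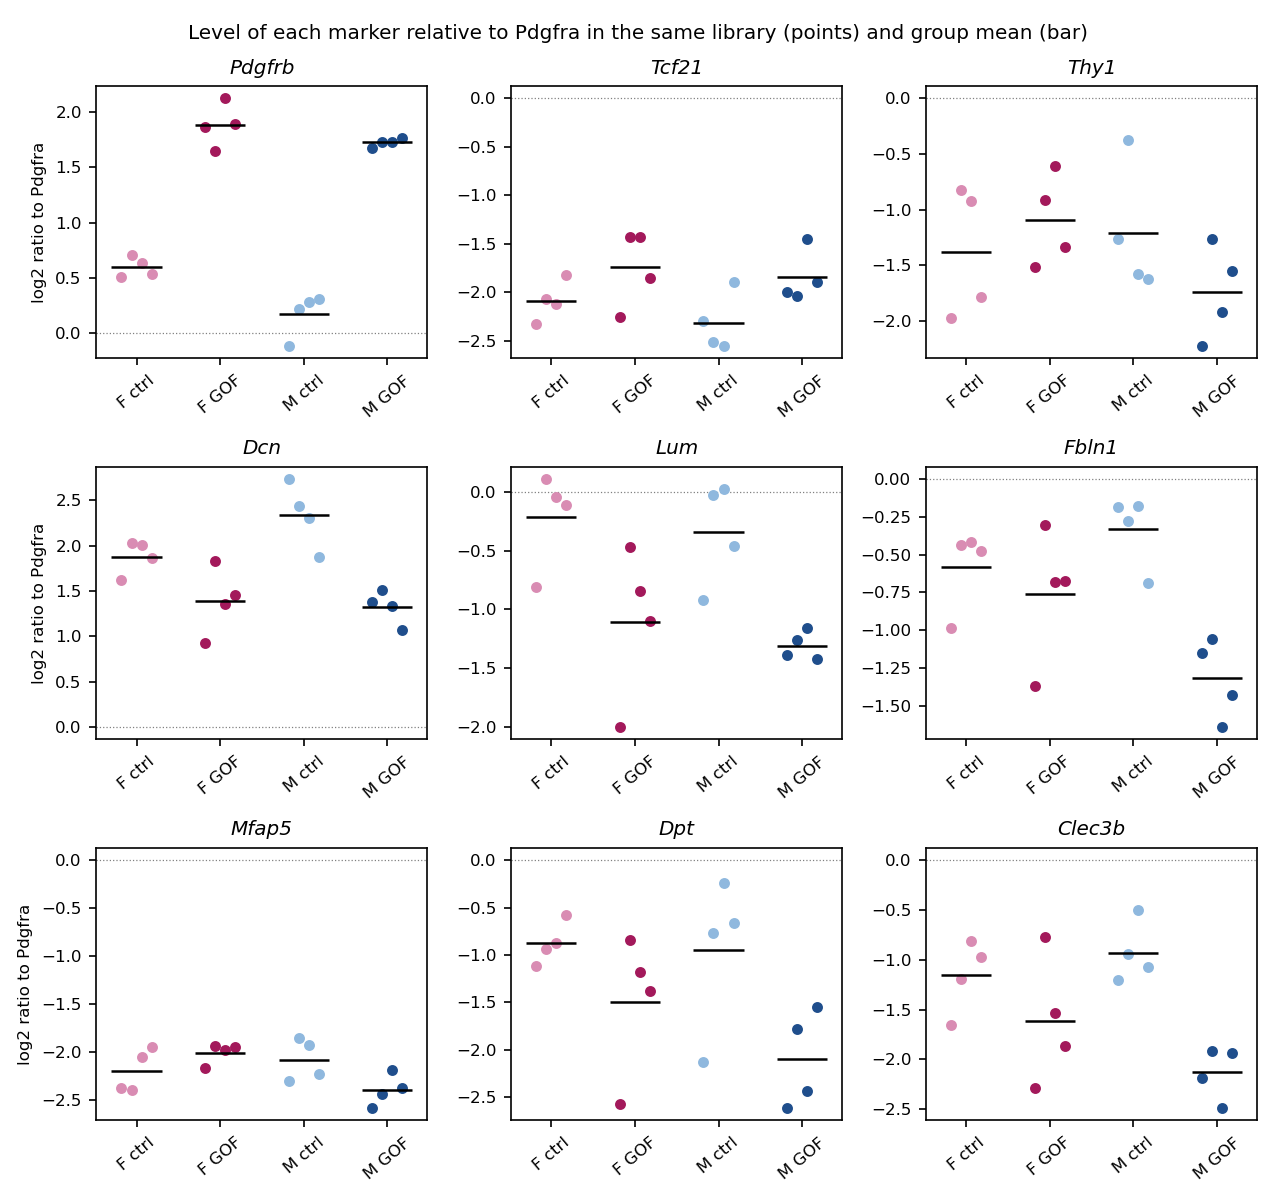
Log2 ratio of each of the other 9 markers to Pdgfra in the same library, with 0.5 CPM added to each level; each point is 1 library and the bar is the group mean. In the Pdgfrb panel the GOF libraries lie between 1.65 and 2.12 and the controls between -0.11 and 0.71, and in males Dcn, Lum, Fbln1 and Clec3b lie lower in GOF without overlap.

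Other genes of the capsule and of fibroblasts were read beside the 10 markers. Of 6 other capsule genes, 4 fell and 1 rose in females (median -1.55) and 5 fell and 0 rose in males (median -1.68). Rspo3, the WNT amplifier made by capsule cells, fell by 3.34 ± 0.213 (SE) in females and by 3.33 ± 0.210 (SE) in males. Gli1, a target of hedgehog signalling in the capsule, fell by 2.02 ± 0.212 (SE) and 1.37 ± 0.206 (SE). Wt1, a transcription factor also made by mesothelium, fell by 2.46 ± 0.407 (SE) in females and fell by 2.96 ± 0.410 (SE) in males. Nr2f2, encoding the nuclear receptor COUP-TFII, fell by 0.52 ± 0.0910 (SE) and 0.48 ± 0.0908 (SE). Its paralogue Nr2f1 rose by 0.34 ± 0.122 (SE) in females (edgeR adjusted p = 0.0386), with a difference of 0.01 ± 0.121 (SE) in males (edgeR adjusted p = 0.961). The female call of Nr2f1 was lost in at least 6 alternatives. It did not hold without female control 1, without female control 3 or without any 1 female GOF library. Col1a1, a chain of type I collagen, had a difference of -1.08 ± 0.444 (SE) in females (edgeR adjusted p = 0.067) and fell by 1.98 ± 0.455 (SE) in males (edgeR adjusted p = 0.00357). Its level ran from 264 to 1688 CPM in male controls and from 189 to 222 CPM in male GOF libraries. The 6 capsule genes summed to 1853 CPM in male control 3 and to 419 to 988 CPM in the other male controls.

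Of 14 genes expressed by fibroblasts of many organs, 8 fell in females (median -1.38) and 10 in males (median -1.84), and 0 rose in either sex. Gsn (gelsolin) changed by -2.05 ± 0.242 (SE) and -2.63 ± 0.247 (SE), and Mgp (matrix Gla protein) by -1.28 ± 0.169 (SE) and -1.33 ± 0.169 (SE). Pcolce, an enhancer of procollagen processing and the most abundant of the list per length, had differences of 0.40 ± 0.163 (SE; edgeR adjusted p = 0.0636) and 0.18 ± 0.163 (SE; edgeR adjusted p = 0.403). Fstl1 had differences of -0.40 ± 0.262 (SE; edgeR adjusted p = 0.236) and -0.49 ± 0.261 (SE; edgeR adjusted p = 0.159).

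Pericyte genes, which share Pdgfrb with fibroblasts, stood at a median of 0.19 in females and 0.09 in males on the log2 scale over 8 genes. In females Rgs5, a regulator of G protein signalling in pericytes, fell by 1.15 ± 0.291 (SE) and Higd1b rose by 1.09 ± 0.341 (SE). In males Rgs5 fell by 0.98 ± 0.289 (SE), Higd1b rose by 1.45 ± 0.341 (SE), and Vtn, which the liver also secretes, fell by 4.98 ± 1.29 (SE). Without male control 2 and female controls 1 and 3 the Vtn difference was -1.33 and was not called. The same fit lost both female calls, with Rgs5 at an edgeR adjusted p = 0.0569 and Higd1b at a log2 difference of 1.34 (edgeR adjusted p = 0.0507). Mcam, the most abundant of the list per length, had differences of 0.19 ± 0.314 (SE; edgeR adjusted p = 0.661) and -0.22 ± 0.313 (SE; edgeR adjusted p = 0.616), and Kcnj8 of 0.36 ± 0.220 (SE; edgeR adjusted p = 0.209) and 0.09 ± 0.219 (SE; edgeR adjusted p = 0.775). Summed over the 8 pericyte genes, levels in CPM were 195 to 273 for female controls, 189 to 268 for female GOF, 186 to 580 in male controls and 275 to 372 in male GOF libraries, which overlap. Of 6 smooth muscle genes, 1 fell in females and 4 in males, with medians of -0.48 and -0.87. Des, encoding the muscle intermediate filament desmin, fell by 0.74 ± 0.157 (SE) in females and by 0.81 ± 0.157 (SE) in males. Acta2 (smooth muscle actin), Myh11 (smooth muscle myosin) and Cnn1 (calponin) fell in males, with log2 fold changes of -0.92 ± 0.324 (SE), -1.12 ± 0.342 (SE) and -2.64 ± 0.661 (SE), and their differences in females were 0.054 ± 0.323 (SE), -0.71 ± 0.344 (SE) and -1.03 ± 0.638 (SE). The 6 genes summed to 276 CPM in male control 3 and to 101 to 112 CPM in the other male controls, against 68.5 to 81.2 CPM in male GOF libraries. Without male control 3 the male differences of Acta2 and Myh11 were -0.45 and -0.47 and were not called (edgeR adjusted p = 0.181 and 0.0533), that of Cnn1 was -1.37 (edgeR adjusted p = 0.0322) and that of Des was -0.73 (edgeR adjusted p = 0.00429). The calls of Acta2 and Myh11 were each lost in 6 alternatives, and in the limma fit without a filter on low values Des was the 1 gene called in males.

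**Figure D4:**
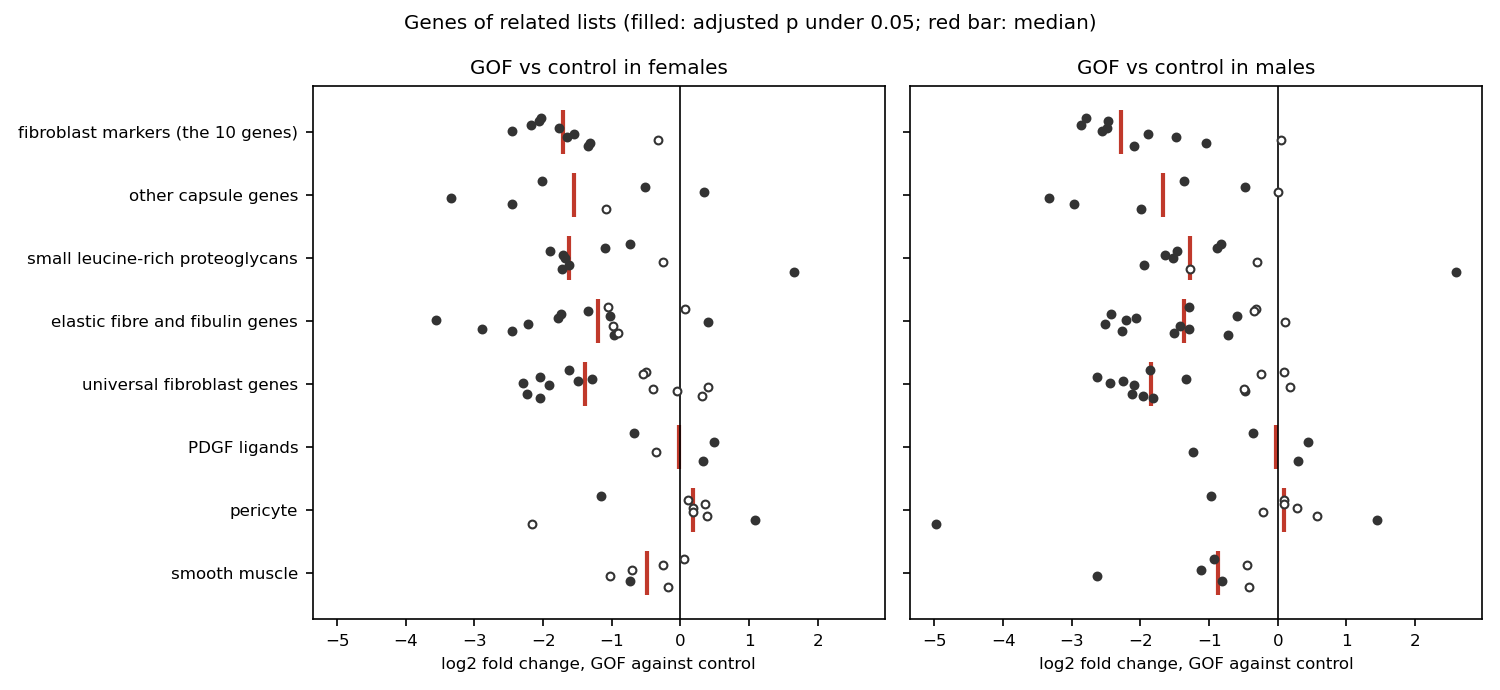
Log2 fold changes of GOF against control for the 10 fibroblast markers and 7 related lists, in females (left) and males (right); each point is 1 gene, filled where the adjusted p passed 0.05, and the red bar is the list's median. The medians of the capsule, proteoglycan, elastic fibre and fibroblast lists lie between -1.20 and -1.84, and those of PDGF ligands and pericytes between -0.03 and 0.19.

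Markers of several other tissues fell beside the fibroblast genes. All 8 markers of the adrenal medulla fell in each sex, and their summed CPM was 4957 to 11934 in controls and 257 to 981 in GOF libraries. All 6 Schwann cell markers fell in each sex, from 22.9 to 204 CPM in controls to 7.24 to 10.2 CPM in GOF libraries. Of 7 adipocyte markers, 6 fell in females and 7 in males. Of 5 mesothelial markers, which line the outside of abdominal organs, 4 fell in each sex, although in females none was called without the 3 libraries that carried liver or kidney RNA, where fewer controls were left and the 4 differences were -0.96 to -1.09 in place of -1.21 to -1.61. Of 7 endothelial markers, 0 changed in females and 2, Plvap and Emcn, rose in males. The call of Emcn (0.53) was lost in 5 alternatives with all or 13 libraries (adjusted p from 0.0519 to 0.146). The number called in males was 1 when any 1 female library was left out. How much these tissues contributed to the levels of the 10 markers was not tested.

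The library titles carry running numbers in 4 separate ranges, and the labels do not say what these stand for. In the lowest range lay 1 female GOF and 1 female control library, and 2 male GOF and 3 male control libraries. The next range held 2 female GOF and 3 female control libraries, and the highest 2 male GOF libraries and 1 male control. The remaining female GOF library stood alone in its range. For the 9 genes that fell, every GOF library lay below every control of its sex, so the same order within a range was fixed in advance. The 4 comparisons that could be made within a range and sex therefore give only sizes of difference. For the 9 genes the differences of mean log2 CPM ran from -3.72 to -1.67, from -2.63 to -0.998, from -2.12 to -0.90 and from -3.01 to -1.42. The differences of Pdgfrb were -0.71, 0.18, -0.18 and -0.17.

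Male controls had higher levels than female controls for 5 of the 10 markers, and none was lower. The 5 were Dcn, higher 2.06-fold (log2 difference 1.04 ± 0.174 SE, edgeR adjusted p = 0.000733), Fbln1 (0.85 ± 0.218 SE, edgeR adjusted p = 0.0123), Thy1 (0.82 ± 0.280 SE, edgeR adjusted p = 0.0468), Mfap5 (0.72 ± 0.212 SE, edgeR adjusted p = 0.0248) and Pdgfra (0.57 ± 0.151 SE, edgeR adjusted p = 0.0149). Of all genes, 13.5% were called higher in male controls, and the median difference of the 10 markers was 0.72 against 0.08 over all genes. Male and female controls did not overlap for Dcn, Fbln1 and Thy1, where 14.4% of all genes had every male control above every female control. Among the markers not called, Clec3b differed by 0.86 ± 0.327 (SE; edgeR adjusted p = 0.0688), and Dpt, Lum, Tcf21 and Pdgfrb differed by 0.73, 0.55, 0.37 and 0.19.

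Markers of other cell types were also higher in male than in female controls. This was called for 7 of 7 neuron markers (median log2 difference 3.17), 3 of 6 Schwann cell markers (1.29), 3 of 6 smooth muscle markers (1.09), 4 of 6 macrophage markers (0.94) and 2 of 7 adipocyte markers (0.73). Without female controls 1 and 3 and male control 2, 0 genes of these 5 lists were called, and the medians were 0.46, 0.77, 1.26, 0.78 and 0.83. Without male control 2 alone, 1 neuron marker was called and the median was 0.71. Without male control 3, whose smooth muscle sum stood apart, 1 smooth muscle marker (median 0.52) and 0 adipocyte markers (median 0.44) were called. Their part in the sex difference of the fibroblast markers was not tested.

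The calls of Thy1, Mfap5 and Pdgfra were each lost when single libraries were left out, while Dcn and Fbln1 were called without any 1 library. Without male control 2 the Thy1 difference was 0.46 (edgeR adjusted p = 0.188), and 3 markers were called. The number called was also 3 without female control 2 or male control 3, and 2 without female control 3. Without female controls 1 and 3 and male control 2 together, 2 were called, Pdgfra and Dcn. With the title number range as a covariate Dcn and Fbln1 were called, and Pdgfra differed by 0.35 (edgeR adjusted p = 0.313). Within the lowest range of title numbers, where 3 male controls stood against 1 female control, the differences of mean log2 CPM were 0.97 for Dcn, 0.88 for Fbln1, 1.02 for Thy1, 0.46 for Mfap5 and 0.10 for Pdgfra.

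In GOF adrenals males exceeded females for 3 markers, and none was lower. Pdgfra differed by 0.75 ± 0.154 (SE) on the log2 scale (edgeR adjusted p = 0.00203), Dcn by 0.63 ± 0.174 (SE; edgeR adjusted p = 0.0136) and Pdgfrb by 0.57 ± 0.181 (SE; edgeR adjusted p = 0.0275). Of all genes, 13.3% were called higher in GOF males. The male and female GOF libraries did not overlap for Pdgfra and Pdgfrb, and 13.4% of all genes had every male GOF library above every female one. Tcf21 differed by 0.64 ± 0.258 (SE; edgeR adjusted p = 0.0738), Lum by 0.43 ± 0.318 (SE) and Mfap5 by 0.37 ± 0.215 (SE). The other 4 differed by less than their standard errors, Fbln1 by 0.13, Clec3b by 0.11, Thy1 by 0.059 and Dpt by 0.036. The median was 0.40, against 0.03 over all genes. In the same comparison 6 of 7 endothelial markers (median 0.63), 4 of 6 macrophage markers (median 0.999) and 4 of 6 T cell markers (median 2.54) were called higher in males, and their part in the marker differences was not tested. With the title number range as a covariate these counts were 0, 3 and 1, with medians of 0.58, 1.73 and 2.65, and with only the groups compared 1 T cell marker was called. The T cell markers summed to 49.4 CPM in male GOF 2, to 7.13 to 11.3 CPM in the other male GOF libraries and to 4.37 to 6.69 CPM in female GOF libraries. Without male GOF 2, 1 T cell marker was called and the median was 0.69. The number of endothelial markers called was 2 or 3 without any 1 of female GOF 2, 3 and 4 and male GOF 1, 3 and 4. Pdgfrb lost its call in 6 alternatives, 5 of which left out 1 GOF library, and Pdgfra and Pdgfrb lost theirs with the title number range as a covariate. Within the lowest range of title numbers, with 2 male GOF libraries against 1 female, the differences were 0.79 for Pdgfra, 0.62 for Pdgfrb and 1.30 for Dcn.

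**Figure D5:**
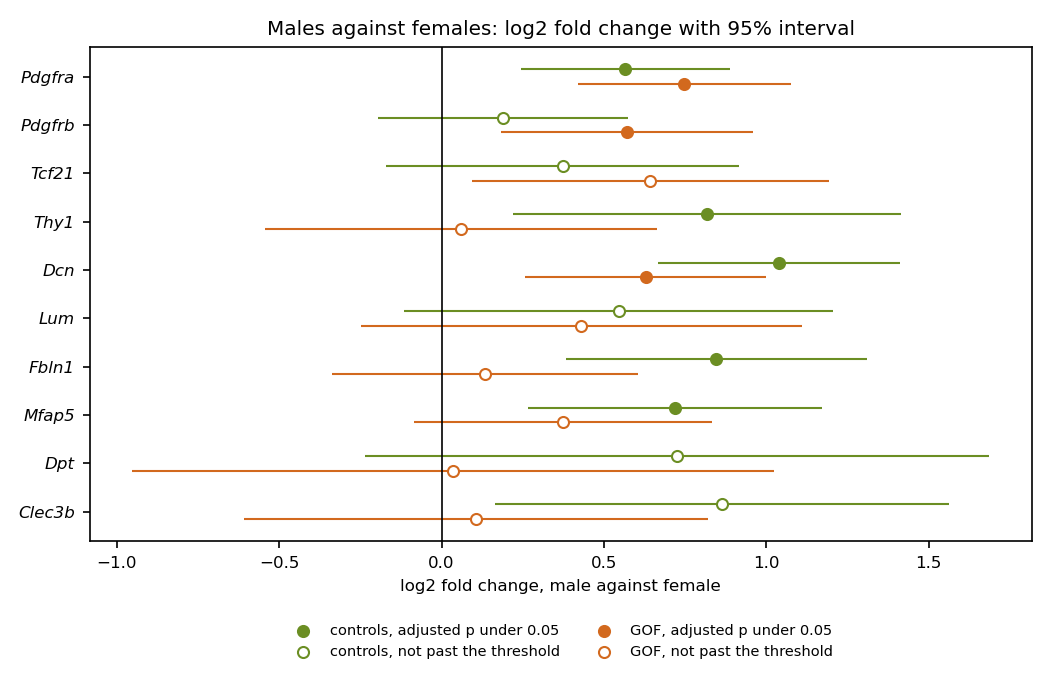
Log2 difference of each marker, males against females, among controls (upper, green) and among GOF adrenals (lower, orange), with the 95% interval of edgeR's quasi-likelihood fit; filled circles passed the adjusted threshold of 0.05. All point estimates lie above 0, 5 are filled among controls and 3 among GOF adrenals.

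The mean CPM of the 9 genes that fell stood in 1 order: male control, female control, male GOF, female GOF. That each GOF mean lay below the control mean of its sex follows from the choice of genes that fell. The share of all genes with this order was not computed. Male and female controls, neighbours in that order, did not overlap only for Dcn, Fbln1 and Thy1, and male and female GOF libraries only for Pdgfra. For Pdgfrb the order of means was male GOF, male control, female control and female GOF, at 105, 102, 89.1 and 70.9 CPM.

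Whether the GOF decrease differed between the sexes was tested as an interaction. None of the 10 markers passed the adjusted threshold in edgeR's quasi-likelihood test or in DESeq2, and 1, Fbln1, had an unadjusted p under 0.05 (difference of log2 fold changes, males against females, -0.71 ± 0.310 SE, edgeR adjusted p = 0.211). Of all genes, 4.21% were called. The differences ran from -0.76 (Clec3b, 95% interval -1.76 to 0.24) to 0.38 (Pdgfrb, 95% interval -0.16 to 0.93). Between them lay Thy1 at -0.76 ± 0.397 (SE), Dpt at -0.69 ± 0.644 (SE), Dcn at -0.41 ± 0.245 (SE), Mfap5 at -0.34 ± 0.302 (SE), Lum at -0.12 ± 0.443 (SE), Pdgfra at 0.18 ± 0.215 (SE) and Tcf21 at 0.27 ± 0.362 (SE). The 10 markers had a median of -0.38 against -0.06 over all genes. The 4 pairwise comparisons share groups with one another, so the values of females and males are set side by side and the comparisons are not independent of each other.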

How the data were processed

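RNA-seq of 16 mouse adrenal libraries was analysed, 4 groups of 4 mice as given by the sample labels. Per the labels' protocols, samples below an RNA integrity number of 7.0 were not used, and NEBNext Ultra libraries were sequenced as 150 bp pairs. TopHat2 2.0.12, Bowtie2 2.2.3, HTSeq 0.6.1 and DESeq 1.18.0 are named in the submitters' processing notes, while the genome build, annotation and strand setting are not given in the sources used here. The deposited counts are whole reads per Ensembl gene, not normalized. The deposited FPKM values equalled counts divided by the library total and by 1 length per gene, within 0.1%, in 30887 of 30887 genes compared, and 94.2% of 30874 such lengths were, within 0.5 bases, the mean over that gene's transcripts in GENCODE M21. Symbols and coordinates are therefore from GENCODE M21 (GRCm38), which held 54809 of the 54838 identifiers.

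Counts were filtered with filterByExpr, scaled by TMM and fitted in edgeR 4.0.16 (R 4.3.3) with a mean per group, robust quasi-likelihood dispersion and 5 contrasts, with Benjamini-Hochberg adjustment over 18214 genes and a threshold of 0.05. The fit was also run on simulated data with far fewer changed genes than were called here, and no result relies on that run. Levels between genes were compared as FPKM. Ratios to Pdgfra, on log2 (CPM + 0.5), were compared by 2-sided exact permutation tests. Profile likeness used log2 CPM with a prior count of 2 and genes with a mean of at least 1 CPM.

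Alternatives were RLE or upper-quartile factors, DESeq2 1.42.0, other filters, limma 3.58.1 on log2(FPKM + 1) or log2(FPKM + 0.1), voom with sample weights, the title number range as a covariate, only the compared groups, and each library left out. Leaving out 3 libraries with liver or kidney transcripts was chosen after seeing the data. The 10 members and all gene lists were chosen with earlier results of these data known. All members were named in every contrast. In other lists the 4 genes of highest mean FPKM, and those that a count of 5 or fewer singles out, could be named, and the rest are given as counts. For Pdgfra and Dcn the 3 nearest profiles among other genes are named. Replicates were numbered by accession. Promoters are RefSeq entries on GRCm38.p6.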

Additional observations from a re-analysis of the deposited data

How the results depend on the processing

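The 9 markers that fell with Rspo1 GOF were called in each sex under all 28 alternatives, namely 11 changes of processing, 16 fits that each left out 1 library and 1 fit without female controls 1 and 3 and male control 2. No marker passed the interaction test in any of the 27 that apply to it. The genes called in GOF females numbered 4554 without those 3 libraries, against 7218. Sex differences were less stable. In place of 5 of the 10 markers called higher in male controls, 2 were called with the title number range as a covariate, 2 with only the groups compared, 3 with limma on log2(FPKM + 1) without a filter, 2 without the 3 libraries, and 2 to 7 when 1 library was left out. Thy1 lost its call in 19 of 28 alternatives, Mfap5 in 8, Pdgfra in 3 and Fbln1 in 1. The genes called between male and female controls numbered 4266, against 1311 with the covariate, 1648 without the 3 libraries and 2650 to 4881 with 1 library left out.

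In GOF adrenals, 1 marker and 1336 genes differed by sex with the covariate, against 3 and 5394, and 2 to 4 markers and 4243 to 5660 genes with 1 library left out. Interaction calls numbered 766, against 408 without a filter, 440 with the covariate, 407 with limma without a filter, 1330 with voom, 1466 with DESeq2, 175 without the 3 libraries and 377 to 953 with 1 library left out. The share of calls that were higher moved with upper-quartile factors from 41.1% to 51.2% for GOF males, from 44.9% to 55.2% for sex in GOF and from 37.9% to 62.6% for the interaction. For the 10 markers, reversals were seen only in differences that were not called. Pdgfrb in males was -0.023 with voom and -0.12 to 0.17 with 1 library left out. Male against female GOF differences ran from -0.087 to 0.25 for Thy1, -0.24 to 0.33 for Dpt, -0.11 to 0.56 for Clec3b and -0.051 to 0.35 for Fbln1 with 1 library left out. The Lum interaction was 0.042 with limma on log2(FPKM + 1), with or without a filter, 0.15 on log2(FPKM + 0.1), 0.036 without the 3 libraries and -0.36 to 0.20 with 1 library left out. The causes were not tested. No called gene of the capsule, matrix, fibroblast, ligand, pericyte and smooth muscle lists changed sign, while called liver, kidney and skeletal muscle genes did without the 3 libraries, such as Lrp2 in GOF females (-7.37 to 1.76), Alb in GOF males (-7.16 to 0.41) and Ckm by sex in controls (3.32 to -0.056). No paired analysis was possible because replicates were numbered by accession and pair no mice. Ratio tests with 1 library left out cannot reach 0.05 after adjustment. Within 40 sets of 4 libraries, Dixon's test singled out 0 values.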

Other observations

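Scara5, a scavenger receptor for ferritin found on fibroblasts of many organs, passed the test for a response that differs between the sexes, a test that none of the 10 markers passed. Its level was 24.6 ± 5.25 CPM (SD, n = 4) in female controls and 30.5 ± 8.55 CPM (SD, n = 4) in female GOF adrenals. In males it was 41.6 ± 8.51 CPM (SD, n = 4) in controls and 10.6 ± 1.11 CPM (SD, n = 4) in GOF adrenals. The log2 difference was 0.31 ± 0.204 (SE) in females (edgeR adjusted p = 0.245) and -1.97 ± 0.212 (SE) in males (edgeR adjusted p = 6.62e-06), with an interaction of -2.28 ± 0.293 (SE; edgeR adjusted p = 0.000808). Among the other fibroblast, capsule, matrix and ligand lists, Pdgfc and Ltbp1 also passed the interaction test, with -0.88 ± 0.210 (SE) and 1.60 ± 0.415 (SE). The Pdgfc call was lost in 4 of the alternatives that kept all 16 libraries or left out 3, and the Ltbp1 call in 6. Both calls were also lost when female control 2 or female GOF 3 was left out, among other single libraries. Scara5 was named after its values were seen.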
